A study of Mus musculus with 32 samples.

Results

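The measurements described here are those of the pancreas of Nox4 knockout mice against pancreas RNA pooled from wild-type mice. They were chosen by sample label as the 8 pancreas arrays of 32 arrays in the series, and come from 4 animals with 2 arrays each. The knockout animals were male Nox4 -/- mice on a C57BL/6 background, aged 17 weeks. The comparison RNA was a pool of wild-type males of the same strain and age, for which the design text and the channel 2 labels name 4 animals and the labelling protocol 6, so its size is unsettled. Brain, kidney and muscle of the same knockout animals were hybridised in the same way. On each pancreas array the knockout RNA carried one dye (Cy5 or Cy3) and the pool the other, and the second array of the animal exchanged them. Probes of the same gene were averaged, which left 9030 named genes and 17053 units with the unnamed probes. Of these, 16298 units, 8711 of them named genes, had both arrays in at least 3 animals and were tested.

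Nox4 is an NADPH oxidase of intracellular membranes that is constitutively active and releases mainly hydrogen peroxide, so its output is set largely by how much of the protein is made. It needs the membrane subunit encoded by Cyba, and its activity is raised by the partner Poldip2, whereas the phagocyte-type oxidases also need cytosolic organisers, activators and Rac. The exocrine pancreas consists mostly of acinar cells that make digestive enzymes in a large endoplasmic reticulum and store them in zymogen granules, with islets, ducts, vessels and stellate cells between them. Hydrogen peroxide acts on protein folding, on calcium release and on phosphatases with a reactive cysteine, and gene lists for these processes are described here beside lists of cell types.

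Every value is a deposited log2 ratio whose direction the labels do not state. Arrays of the same animal correlated at r from −0.376 to −0.166 across probes, and arrays of the same dye orientation at 0.108 to 0.410, so the direction is not settled. The signs were kept as deposited. The mean of an animal's arrays is a ratio of knockout over pool if the exchanged arrays had been turned to that direction, and above and below 0 swap if they had been turned to the inverse. If they had not been turned, the mean is no knockout ratio, and the knockout ratio is the orientation difference described further on, up to its sign. No probe was annotated as Nox4 (0 of 20794, of which 8023 had no symbol). The deleted gene therefore gives no check of labels or direction. Ratios carry no level, so the tissue label could not be checked against the abundance of pancreatic transcripts. The pancreas arrays carried 19815 to 20525 values each, of which 25 to 159 lay beyond 8 in size and were taken as missing. Where the knockout was labelled with Cy5 these extreme values were all positive, and where it was labelled with Cy3 all negative. Precision is limited by the number of arrays. A p-value here measures the spread between the 4 knockout animals only, since the pool counts as 1 control sample and shows no spread of its own. In bulk tissue, fewer cells of a type and less RNA per cell cannot be told apart.

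With the signs as deposited, no gene passed the test against 0. Of 16298 units, limma called 0 (0%) at a Benjamini-Hochberg adjusted p under 0.05, and the smallest adjusted p was 0.996. At an unadjusted p under 0.05 there were 568 units (3.49%), 259 above 0 (1.59%) and 309 below (1.9%). The mean lay above 0 for 8210 units (50.4%) and below for 8088 (49.6%). The median SE of a mean was 0.11. With the spread shared with the other 3 tissues 71 of 16186 units were called, 40 above and 31 below. That fit had no weight per tissue, although the median SD over animals was largest in pancreas. It was 0.214 there, against 0.127 in brain, 0.0988 in kidney and 0.172 in muscle. With the Cy3 arrays turned in sign 3070 units were called, which are the units of the orientation difference described further on.

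The animals' values were close to uncorrelated across genes. Over the 15366 units measured in all of them, their values correlated at r from −0.104 to 0.0307 between animals, which share the pool. The SD over units was 0.376 in animal 1, 0.280 in animal 2, 0.405 in animal 3 and 0.248 in animal 4. Values beyond 1 in size numbered 425, 181, 488 and 114 in the same order, so animals 1 and 3 held most of them. Of the 8268 named genes with 4 animals, 179 (2.16%) lay above 0 in every animal and in both orientation means, and 198 (2.39%) lay below 0 in all of them.

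Among the genes above 0 with the smallest p, chosen by the rule that all 4 animals and both orientation means share the sign, 12 had means between 0.36 and 0.81 and none passed the test. Best1 encodes bestrophin, a chloride channel activated by calcium. Its array values for animals 1 to 4 were 1.04, 0.99, 1.69 and 0.34 with the knockout in Cy5, and 0.48, 0.27, −0.22 and 1.90 with it in Cy3. Only the Cy3 array of animal 3 lay below 0, and the animal means were close together. The mean was 0.81 ± 0.11 (SE, n = 4), a ratio of 1.75. Fhod3, a formin that builds actin filaments in muscle sarcomeres, was at 0.60, 0.82, 0.54 and 0.77 with the knockout in Cy5, and 0.39, 0.20, 0.75 and 0.06 with it in Cy3. All 8 arrays lay above 0, and its mean was 0.51 ± 0.08 (SE, n = 4). Cox20, which helps assemble cytochrome c oxidase, was at 0.76, 0.56, 0.69 and 0.16 with the knockout in Cy5, and 0.33, 0.37, 0.20 and 0.54 with it in Cy3. It too lay above 0 on all 8 arrays, with a mean of 0.45 ± 0.08 (SE, n = 4).

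**Figure D1:**
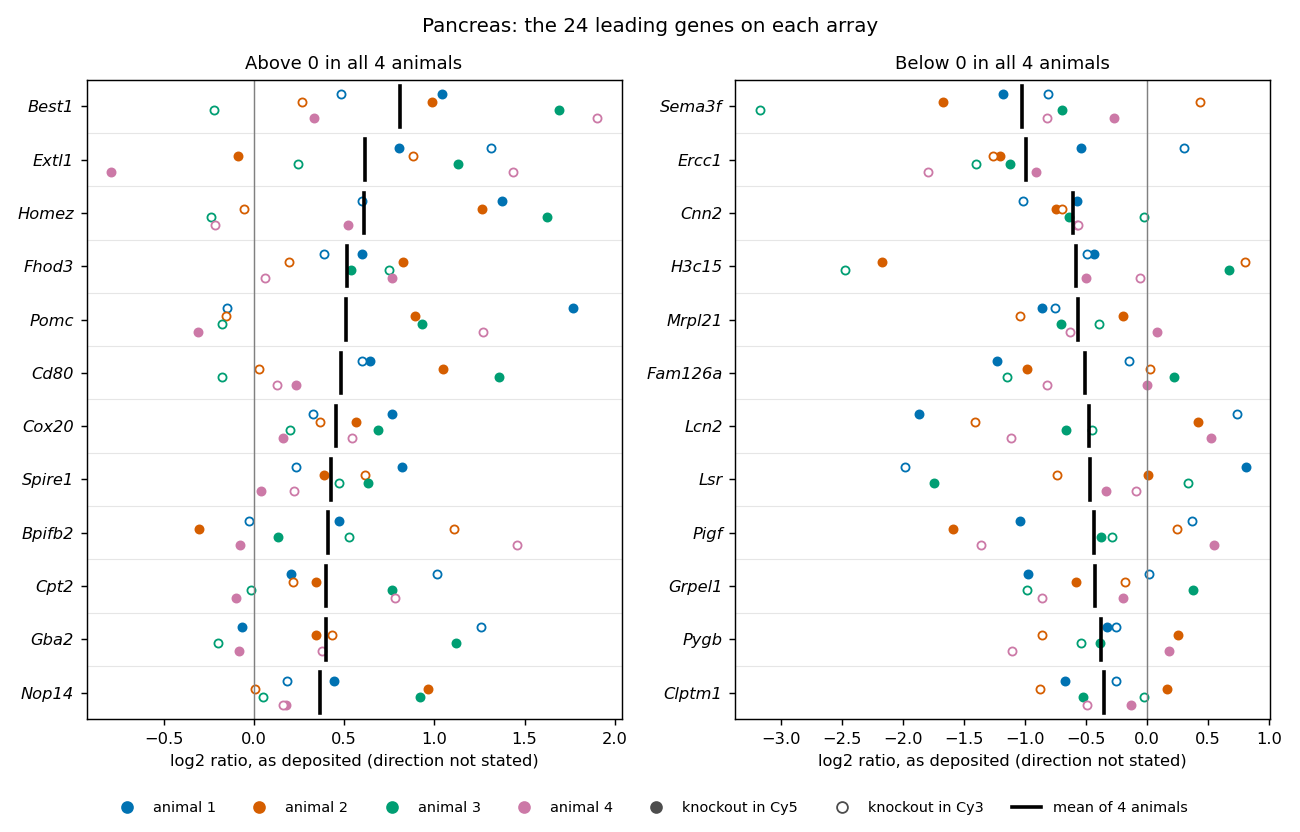
Log2 ratio (signs as deposited) of the 12 genes above and the 12 genes below 0 with the smallest p, with filled points for arrays with the knockout in Cy5, open points for Cy3, colours for the 4 animals and a black bar for their mean. The means run from 0.36 to 0.81 above 0 and from −1.03 to −0.35 below, and for many genes single arrays lie on the other side of 0.

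Pomc, the precursor of melanocortin peptides and beta-endorphin, showed another pattern. Its values were 1.77, 0.89, 0.93 and −0.31 with the knockout in Cy5, and −0.15, −0.16, −0.18 and 1.27 with it in Cy3. The orientations had opposite signs in every animal, yet the animal means (0.81, 0.37, 0.38 and 0.48 in animals 1 to 4) all lay above 0, with a mean of 0.51 ± 0.11 (SE, n = 4). Cd80, a costimulatory molecule of antigen-presenting cells, was at 0.62, 0.54, 0.59 and 0.18 in animals 1 to 4, with a mean of 0.48 ± 0.11. Cpt2, the inner-membrane enzyme that returns fatty acids from carnitine to coenzyme A for oxidation, was at 0.61, 0.28, 0.37 and 0.34 in animals 1 to 4, with a mean of 0.40 ± 0.09. Its highest animal was animal 1 and the others lay close together. Extl1, a glycosyltransferase of heparan sulphate synthesis, had the widest arrays of the group, at 0.80, −0.09, 1.13 and −0.79 with the knockout in Cy5, and 1.31, 0.88, 0.24 and 1.44 with it in Cy3. Homez, a homeobox and leucine zipper protein, was above 0 on all Cy5 arrays and below 0 on 3 of the 4 Cy3 arrays, with a mean of 0.61 ± 0.15 (SE, n = 4). Spire1, an actin nucleator of vesicle transport, was at 0.53, 0.50, 0.55 and 0.13 in animals 1 to 4. Animal 4 was the lowest for Spire1, and all 8 arrays lay above 0. The remaining genes above 0 were Bpifb2 at 0.41 ± 0.10, Gba2, a glucosylceramidase outside the lysosome, at 0.40 ± 0.10, and Nop14, a factor of small ribosomal subunit assembly, at 0.36 ± 0.09.

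Of the 12 corresponding genes below 0, with means between −1.03 and −0.35, again none passed the test. Cnn2 encodes calponin 2, an actin-binding protein of smooth muscle and other cells. Its array values were −0.57, −0.75, −0.64 and −0.57 with the knockout in Cy5, and −1.02, −0.70, −0.03 and −0.57 with it in Cy3. All 8 arrays lay below 0, and animal 3 was the nearest to 0. The mean was −0.61 ± 0.11 (SE, n = 4), and its 2 probes had means of −0.86 and −0.35. Sema3f, a secreted guidance protein, was at −1.18, −1.67, −0.70 and −0.27 with the knockout in Cy5, and −0.82, 0.43, −3.18 and −0.82 with it in Cy3, with a mean of −1.03 ± 0.24 (SE, n = 4). The Cy3 array of animal 3 was far the lowest and that of animal 2 lay above 0.

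Several genes below 0 rested on one probe of the pair. Ercc1, a nuclease subunit of nucleotide excision repair, was at −0.12, −1.24, −1.26 and −1.35 in animals 1 to 4, so animal 1 stood apart. Its mean was −0.99 ± 0.22 (SE, n = 4), but over probes complete on all 8 arrays it was −0.23. Lcn2, a siderophore-binding protein of the acute phase, had a mean of −0.48 ± 0.09 (SE, n = 4), from −0.57, −0.50, −0.56 and −0.30 in animals 1 to 4. Its array values ran −1.87, 0.42, −0.66 and 0.52 with the knockout in Cy5, and 0.74, −1.41, −0.46 and −1.12 with it in Cy3, and over complete probes the mean was 0.01. Fam126a, a scaffold of a lipid kinase complex, was at −0.51 ± 0.09 over all probes and at 0.11 over complete probes. Mrpl21, a protein of the large mitochondrial ribosomal subunit, was at −0.81, −0.62, −0.55 and −0.28 in animals 1 to 4, with probe means of −0.99 and −0.14. The choice of complete probes was made after the values were seen.

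H3c15, a replication-dependent histone H3 gene, was at −0.46, −0.69, −0.90 and −0.28 in animals 1 to 4, although its arrays spanned −2.48 to 0.80. Grpel1, the nucleotide exchange factor of mitochondrial Hsp70, was at −0.48, −0.38, −0.31 and −0.53 in animals 1 to 4, with a mean of −0.42 ± 0.08. Pygb, the brain form of glycogen phosphorylase, was at −0.29, −0.30, −0.47 and −0.46 in animals 1 to 4, with a mean of −0.38 ± 0.08. Pigf, of the synthesis of glycosylphosphatidylinositol anchors, was at −0.44 ± 0.09, Clptm1 at −0.35 ± 0.08, and Lsr, a protein of tricellular junctions, at −0.47 ± 0.11. With the Cy3 arrays turned, 13 of the 24 genes above and below 0 changed sign, among them Cpt2, Extl1, Mrpl21, Grpel1, Lcn2 and Sema3f.

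Genes with one sign on all 8 arrays were few. They were 13 units above 0 and 22 below, of 15366, and 10 and 13 named genes of 8268. These genes were chosen after their values were seen. Above 0, besides Fhod3, Cox20, Spire1 and Nop14, they were Kansl2 (0.45), Orm2, an acute-phase plasma protein (0.21), Utf1 (0.20), Tsnax (0.15), Klf1, the transcription factor of red cell precursors (0.14), and Uroc1, of histidine breakdown (0.13). Below 0, besides Cnn2, the largest means were those of Mrpl33, a mitochondrial ribosomal protein, at −0.55, Dync1li1, a dynein light intermediate chain, at −0.43, and Sgtb at −0.39. Mrpl33 was at −0.14, −0.09, −1.23 and −0.60 with the knockout in Cy5 and at −0.05, −0.89, −1.15 and −0.23 with it in Cy3. Il6st, the shared receptor subunit of the interleukin-6 family, was at −0.35, −0.08, −0.32 and −0.08 in animals 1 to 4, with a mean of −0.21.

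The means of the digestive enzymes of acinar cells, with signs as deposited, lay near 0, while 4 of the 12 differed between dye orientations. Of 30 list entries 13 were on the array and 12 were tested, 6 above 0 and 6 below, with a median of 0.01 and a range of −0.18 to 0.12 (all units: 50.4% above, median 0.00). None passed the test. With the Cy3 arrays turned the values ran from −0.62 for Spink1 to 0.56 for Ctrl, and Spink1, Cpa1, Ctrb1 and Ctrl passed (33.3%, against 18.8% of all units). Cela3b, an elastase-family protease, was at 0.28, 0.18, −0.04 and 0.07 in animals 1 to 4, with a mean of 0.12 ± 0.09 (SE, n = 4), and −0.04 with the Cy3 arrays turned. Pnliprp2, a lipase of milk fat and galactolipids, was at −0.13, −0.06, −0.32 and −0.21 in animals 1 to 4, with a mean of −0.18 ± 0.09, and −0.34 turned. Every animal lay below 0, while the arrays with the knockout in Cy3 lay on both sides.

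For 4 of the enzymes the arrays separated by dye. Cpa1, carboxypeptidase A1, was at −0.61, −0.59, −0.48 and −0.40 with the knockout in Cy5, and 0.14, 0.35, 1.04 and 0.97 with it in Cy3. All Cy5 arrays lay below 0 and all Cy3 arrays above, and the mean was 0.05 ± 0.12. Ctrb1, a chymotrypsinogen, followed the same pattern at −0.43, −0.54, −0.40 and −0.52 with the knockout in Cy5, and 0.16, 0.28, 1.23 and 0.41 with it in Cy3, with a mean of 0.02 ± 0.12. Ctrl, a chymotrypsin-like protease, had the opposite pattern at 0.52, 0.63, 0.58 and 0.49 with the knockout in Cy5, and −1.03, −0.38, −0.43 and −0.38 with it in Cy3, with a mean of 0.00 ± 0.10. Spink1, the trypsin inhibitor secreted with the enzymes, had Cy5 arrays below 0 and Cy3 arrays above, with a mean of −0.01 ± 0.10. Clps, the cofactor of pancreatic lipase, was at −0.14 ± 0.11, Pnliprp1 at −0.08 ± 0.08 and the secreted phospholipase Pla2g1b at 0.11 ± 0.08. The ribonuclease Rnase1 was at 0.09 ± 0.09, the deoxyribonuclease Dnase1 at −0.02 ± 0.09 and the kallikrein Klk1 at 0.07 ± 0.08.

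**Figure D2:**
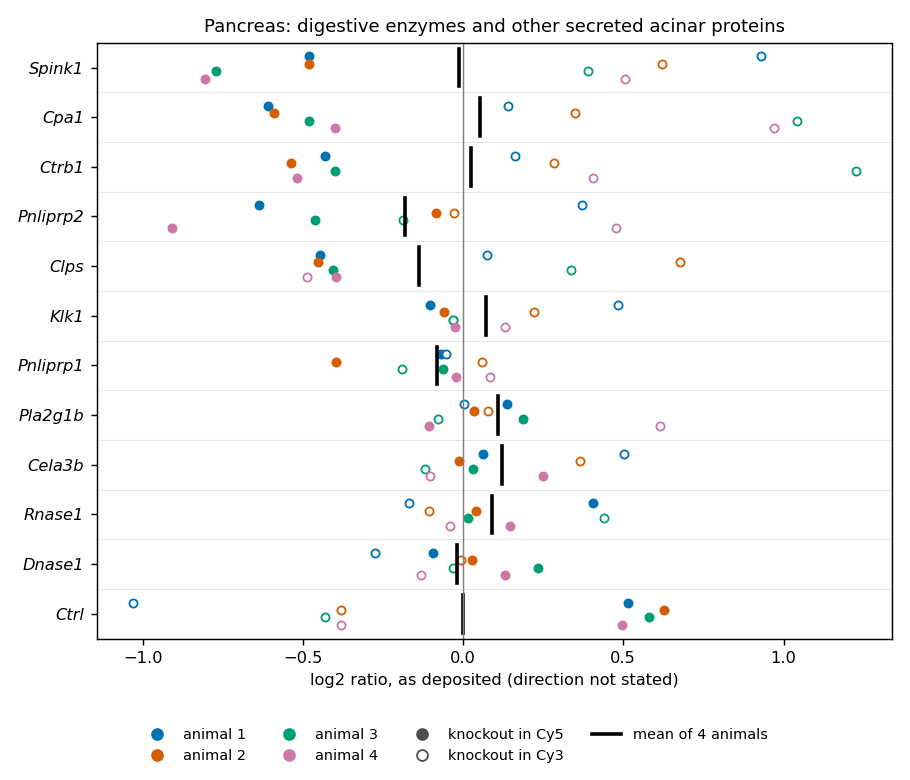
Log2 ratio (signs as deposited) of the 12 measured digestive enzyme genes on each of the 8 pancreas arrays, with colours for animals, filled points for the knockout in Cy5, open points for Cy3 and a black bar for the mean. Means lie between −0.18 and 0.12, and for Cpa1, Ctrb1 and Spink1 the Cy5 arrays lie below and the Cy3 arrays above 0, with Ctrl the other way round.

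Acinar identity and zymogen granule genes (18 tested) were 10 above 0 and 8 below, with a median of 0.00. Sycn, a protein of the granule membrane, was at 0.82, 0.05, 0.38 and −0.07 in animals 1 to 4, with a mean of 0.29 ± 0.16 (SE, n = 4), and animals 1 and 3 were high. Dpep1, a membrane dipeptidase, was at 0.04, 0.02, 0.06 and 0.93 in animals 1 to 4, so a single animal set its mean of 0.26 ± 0.18. Syt1, a calcium sensor of exocytosis, was at −0.18 ± 0.10, and at −0.06 over complete probes.

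Islet and endocrine genes (14 tested) were 9 above 0 and 5 below, with a median of 0.04. Ins1, Ins2 and Ppy had no tested value. Gcg, the precursor of glucagon, was at −0.54, −0.84 and 0.87 in animals 2, 3 and 4, with a mean of −0.17 ± 0.35 (SE, n = 3), and the animals lay on both sides of 0. Sst, somatostatin, was at −0.14, 0.29, −0.04 and 0.15 in animals 1 to 4, with a mean of 0.06 ± 0.10 (SE, n = 4). Slc2a2, the glucose transporter of beta cells and liver, was above 0 in every animal, at 0.21, 0.05, 0.02 and 0.29 in animals 1 to 4, with a mean of 0.14 ± 0.09. Glp1r, the receptor of glucagon-like peptide 1, was at 0.13 ± 0.10, and Pcsk1n, an inhibitor of the prohormone convertase, at −0.17 ± 0.13. Over complete probes the mean of Pcsk1n was −0.01. Duct genes (12 tested) were 5 above 0 and 7 below, with a median of −0.04. Of the duct keratins, Krt7 was at −0.23 ± 0.15, Krt19 at 0.12 ± 0.08 and Krt8 at −0.11 ± 0.08.

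Other cell types of the organ gave medians near 0 as well. Stellate cell and fibroblast genes (16 tested) were 8 above 0 and 8 below, with a median of −0.02. Col3a1, the fibrillar collagen III chain, was at −0.23, −0.41, −0.53 and −0.01 in animals 1 to 4, all below 0, with a mean of −0.30 ± 0.11 (SE, n = 4). Smooth muscle genes (10 tested) were 5 above 0 and 5 below, with a median of 0.01, and endothelial genes (15 tested) were 9 above 0 and 6 below, with a median of 0.03. Macrophage and granulocyte genes (15 tested) were 9 above 0 and 6 below, with a median of 0.01, and lymphocyte genes (12 tested) were 9 above 0 and 3 below, with a median of 0.06. Cd3d, a subunit of the T cell receptor complex, was at 1.16, 0.45, 0.36 and −0.35 in animals 1 to 4, with animal 1 the highest and animal 4 below 0.

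Adipocyte genes (11 tested) were 7 above 0 and 4 below, with a median of 0.08, and of −0.05 with the Cy3 arrays turned. Fabp4, the fatty acid binding protein of adipocytes, was nonetheless at −0.26 ± 0.08. Erythroid genes (5 tested) were 3 above 0 and 2 below, with a median of 0.01, and liver genes (9 tested) were 6 above 0 and 3 below, with a median of 0.04. Nerve and Schwann cell genes (10 tested) were 6 above 0 and 4 below, with a median of 0.04, with an animal median of 0.35 in animal 3. Nefm, a neurofilament subunit, was at 0.24, 0.17, 1.26 and −0.18 in animals 1 to 4, and animal 3 was the highest. Stomach and intestine genes (6 tested) were 2 above 0 and 4 below, with a median of −0.08, and of −0.07 turned. Cdx1, an intestinal homeobox factor, was at −0.72, −0.45, −0.04 and −0.24 in animals 1 to 4, below 0 throughout. Fabp1, the fatty acid binding protein of liver and gut, was at 0.23, −0.09, −1.87 and −0.08 in animals 1 to 4, and animal 3 stood far below the rest.

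Of the NADPH oxidases and partners, 9 were tested and were 4 above 0 and 5 below, with a median of −0.05. Cyba, the membrane subunit that Nox4 requires, was at 0.22, 0.10, 0.46 and −0.51 in animals 1 to 4. Animals 1 to 3 lay above 0 and animal 4 below, and the mean was 0.06 ± 0.17 (SE, n = 4). Poldip2, a partner that raises Nox4 activity, was at −0.05, −0.05, −0.29 and 0.11 in animals 1 to 4, with a mean of −0.07 ± 0.10 (SE, n = 4). Cybb, the catalytic subunit of the phagocyte oxidase, was at 1.18, 0.30 and −0.46 in animals 2, 3 and 4, with a mean of 0.34 ± 0.32 (SE, n = 3), and one array lay as high as 3.12. Noxa1, the activator of Nox1, was at 0.25, −0.52, −0.70 and −0.88 in animals 1 to 4, with a mean of −0.46 ± 0.19, and its organiser Noxo1 was at −0.19 ± 0.15. Ncf4, a cytosolic subunit of the phagocyte oxidase, was at −0.39, −0.12, 0.13 and 1.41 in animals 1 to 4, and animal 4 set its mean of 0.26 ± 0.30. The GTPases Rac1 and Rac2 were at −0.05 ± 0.08 and −0.05 ± 0.17, and the scaffold Sh3pxd2b at 0.10 ± 0.08.

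Antioxidant and glutathione enzymes (35 tested) were 21 above 0 and 14 below, with a median of 0.03. Gpx7, a peroxidase of the endoplasmic reticulum that passes oxidising power to folding enzymes, was at −0.16, −0.69, −0.90 and −0.37 in animals 1 to 4. Every animal lay below 0, with a mean of −0.53 ± 0.14 (SE, n = 4), but the arrays were 1.14, 0.44, −0.06 and 0.12 with the knockout in Cy5, and −1.46, −1.82, −1.74 and −0.87 with it in Cy3. Gclm, the regulatory subunit of glutathione synthesis, was at 0.29, 0.02, 0.29 and 0.21 in animals 1 to 4, with a mean of 0.20 ± 0.09. Gpx2, the gastrointestinal glutathione peroxidase, was at −0.24 ± 0.12, with animal 4 the lowest.

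The 20 measured genes nearest to Nox4, 10 on each side, were 15 above 0 and 5 below, with a median of 0.04. This list was made after the files were seen. Efl1, a ribosome maturation GTPase, was at −0.09, 0.75, 0.76 and −0.38 in animals 1 to 4, high in animals 2 and 3. Sytl2, a Rab27 effector of granule docking, was at −0.37, −0.05, 1.32 and 0.01 in animals 1 to 4, high in animal 3 alone. Fah, of tyrosine breakdown, had the lowest mean, −0.17 ± 0.11.

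Genes of the unfolded protein response and of folding in the endoplasmic reticulum (22 tested) were 10 above 0 and 12 below, with a median of −0.02. Ppp1r15a, which reverses the block of translation initiation under stress, was at −0.42, −0.33, −0.79 and −0.26 in animals 1 to 4. All animals lay below 0, with a mean of −0.45 ± 0.11 (SE, n = 4), and over complete probes the mean was −0.24. The oxidases of disulphide formation, Ero1a and Ero1b, were at 0.22 ± 0.09 (SE, n = 4) and 0.32 ± 0.12 (SE, n = 3). Genes of signal peptide translocation and COPII transport (35 tested) were 15 above 0 and 20 below, with a median of −0.03. Spcs1, a subunit of signal peptidase, was at 0.25, 0.23, 0.42 and 0.31 in animals 1 to 4, with close values and a mean of 0.31 ± 0.08 (SE, n = 4). Dad1, a subunit of the oligosaccharyltransferase, was at −0.61, −0.65, −0.46 and 0.15 in animals 1 to 4, with a mean of −0.39 ± 0.15 and probe means of −0.13 and −0.65. Rpn1, another subunit of that enzyme, was at 0.50, 0.06, 1.27 and 0.01 in animals 1 to 4, with a mean of 0.46 ± 0.22 that animal 3 raised.

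Pancreatitis and regenerating genes (22 tested) were 12 above 0 and 10 below, with a median of 0.04. Besides Lcn2, the acute-phase protein Saa3 was at −0.21, −0.01, −0.67 and −0.22 in animals 1 to 4, with animal 3 the lowest. Calcium store and channel genes (15 tested) were 6 above 0 and 9 below, with a median of −0.01. Their highest member was Best1, and the ryanodine receptor Ryr1, a calcium release channel, was at −0.01, −0.46, −0.11 and −0.22 with the knockout in Cy5, and −0.56, 0.05, −1.90 and 0.10 with it in Cy3, with a mean of −0.39 ± 0.17 and of −0.15 over complete probes.

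Mitochondrial ribosome and import genes (67 tested) were 34 above 0 and 33 below, with a median of 0.00. Mrps30 was at 1.04, 0.57 and 0.24 in animals 1, 2 and 4, above 0 in the 3 animals with a value. Genes of oxidative phosphorylation and its assembly (63 tested) were 38 above 0 and 25 below, with a median of 0.01. Fatty acid oxidation genes (28 tested) were 11 above 0 and 17 below, with a median of −0.02. Besides Cpt2, Acad9, of the acyl-CoA dehydrogenases, was at 0.73, 0.60 and 0.19 in animals 2, 3 and 4 and Etfa, the electron acceptor of these enzymes, at 0.24, 0.05, 0.53 and 0.35 in animals 1 to 4. These 3 genes were above 0 in every measured animal, while 17 of the 28 lay below 0. Hypoxia response genes (24 tested) were 8 above 0 and 16 below, with a median of −0.02. Egln3, an oxygen sensor hydroxylase, was at −0.39, −0.28, −0.52 and −0.27 in animals 1 to 4, and P4ha2, a collagen prolyl hydroxylase, at 0.66, 0.05 and 0.81 in animals 1, 3 and 4. Glycogen and glycolysis genes (25 tested) were 9 above 0 and 16 below, with a median of −0.02, and insulin and mTOR signalling genes (29 tested) were 12 above 0 and 17 below, with a median of 0.00.

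Extracellular matrix genes and their proteases (44 tested) were 21 above 0 and 23 below, with a median of −0.01. Nid2, a basement membrane linker, was at −0.21, −0.78 and −0.69 in animals 1, 2 and 4. Peroxide-sensitive phosphatases (31 tested) were 13 above 0 and 18 below, with a median of −0.04. Dusp22 was at −0.30, 1.07, 1.01 and 0.25 in animals 1 to 4 and the receptor phosphatase Ptprg at −0.33, 0.01 and −1.71 in animals 1, 2 and 4, where animal 4 stood apart. Proteasome genes (36 tested) were 18 above 0 and 18 below, with a median of 0.00, cytosolic ribosome genes (55 tested) were 29 above 0 and 26 below, with a median of 0.01, and solute carriers (21 tested) were 11 above 0 and 10 below, with a median of 0.01. Slc7a7, a cationic amino acid transporter, was at 2.20, 1.93, 0.92 and −0.38 in animals 1 to 4, lying on both sides of 0, with a mean of 1.17 ± 0.43 (SE, n = 4). The lactate carrier Slc16a1 was at −0.52, −0.91, −0.13 and −0.67 in animals 1 to 4, with a mean of −0.56 ± 0.14. No member of these 31 lists passed the test, and their medians lay between −0.08 and 0.08. With the Cy3 arrays turned, the medians lay between −0.18 and 0.20, and 10 of the 31 changed sign. The lowest turned median was that of the calcium list and the highest that of the liver list.

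**Figure D3:**
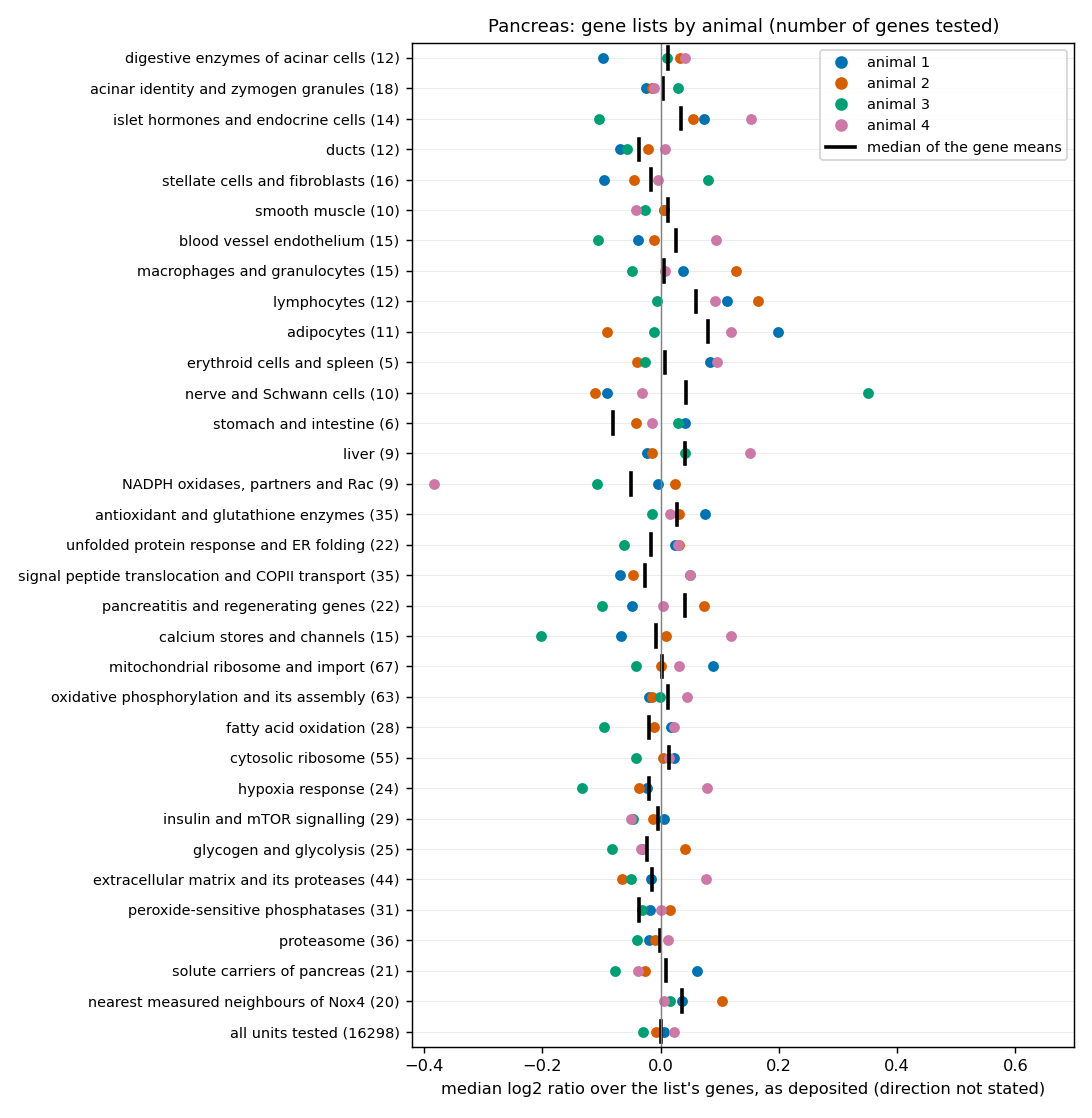
Median log2 ratio (signs as deposited) of each gene list in each of the 4 animals, with a black bar for the median of the gene means. List medians lie between −0.08 and 0.08, and single animals depart further, such as animal 3 for the nerve list at 0.35.

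The arrays of an animal opposed each other. Of 8268 named genes, the orientation means had opposite signs in 78.2%: 2985 were above 0 with the knockout in Cy5 and below with it in Cy3, and 3480 the reverse. Whether the deposited ratios of the exchanged arrays had been turned to a common direction is not stated. If they had been, this difference between orientations belongs to dye and probe, and if they had not, it is the knockout difference itself. These cannot be told apart here, so the difference is given in full. It is the value with the knockout in Cy5 minus the value with it in Cy3, divided by 2, per animal.

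By limma, 3070 of 16298 units (18.8%) differed between orientations, 1364 above 0 (8.37%) and 1706 below (10.5%), with a smallest adjusted p of 0.0270. Of these 1541 were named genes, 728 above and 813 below. Without animal 1 there was 1 call, and without animal 2, 3 or 4 there were 0. The median size over the called units was 0.51 with all animals and 0.49 to 0.52 with 1 left out, and all 3070 kept their sign each time. These units were called on the same 4 animals, so the kept signs and sizes largely follow from that choice. The smallest limma adjusted p was 0.00862 without animal 1, and 0.105, 0.0753 and 0.0845 without animal 2, 3 or 4. At an unadjusted p under 0.05 limma gave 6305 units with all animals and 4921 to 5490 with 1 left out. The stability of the differences was not tested. Centring the arrays gave 2849 calls, 1522 above and 1327 below, and scaling them gave 2959, 1579 above and 1380 below.

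Among the called genes with the highest difference, Sgpl1, which cleaves sphingosine 1-phosphate, was at 1.56, 1.19, 5.61 and 0.39 with the knockout in Cy5, and −0.83, −2.80, −1.16 and −0.82 with it in Cy3. Its orientation difference was 1.80 ± 0.44 (SE, n = 4, limma adjusted p = 0.0458), and animal 3 was the highest. Pf4, a platelet chemokine, was at 1.62 ± 0.41, Dnmt1, the maintenance DNA methyltransferase, at 1.52 ± 0.29, and Rgs5, a marker of pericytes, at 1.42 ± 0.24. Il15ra, the interleukin-15 receptor chain, was at 1.45 ± 0.32, above 0 on every Cy5 array and below on every Cy3 array. The others of the 10 highest were Wnt2b, Mpp1, Poli, Mtg1 and Vamp1, at 1.44 to 1.62. The probes of Wnt2b had both arrays in 1 animal and in 3 animals, so its 4 animals do not rest on the same probes.

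Among the lowest, Alg5, a glucosyltransferase of N-glycan synthesis, was at −3.10, −2.15, −1.54 and −2.08 with the knockout in Cy5, and 2.51, 2.87, 1.26 and 0.73 with it in Cy3. Its difference was −2.03 ± 0.28 (SE, n = 4, limma adjusted p = 0.0270), and every array of an orientation had the same sign. Ufd1, which delivers ubiquitylated proteins from the endoplasmic reticulum for degradation, was at −1.91 ± 0.32. Eno3, the muscle enolase, was at −1.22 ± 0.24 and Ptges, a prostaglandin E synthase, at −1.14 ± 0.28. The remaining members, Cnih2, Prrc2a, Csnk1d, Pemt, Tulp2 and Ccdc59, lay at −1.21 to −0.82. Of the list genes, the difference passed for Ctrl (0.56 ± 0.09, limma adjusted p = 0.0270) above 0 and for Cpa1 (−0.57 ± 0.10), Ctrb1 (−0.50 ± 0.11) and Spink1 (−0.62 ± 0.08) below, that is 4 of 12 digestive enzymes. Over all lists it passed for 135 of 725 tested genes (18.6%), against 18.8% of all units and 17.7% of named genes. Of the 129 list genes taken by the naming rule it passed for 21 (16.3%), 13 above and 8 below. Besides the enzymes, those above were Gcg at 1.06 ± 0.11 (n = 3), Sycn, S100a9, Rgs5, Nefm, Fabp1, Fga, Apoa2, Cyba at 0.64 ± 0.16, Gpx7 at 0.94 ± 0.15, Pgm2 and Col6a1. Those below were Pnpla2, Mbp, Poldip2 at −0.45 ± 0.08, Me3 and Crebzf.

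**Figure D4:**
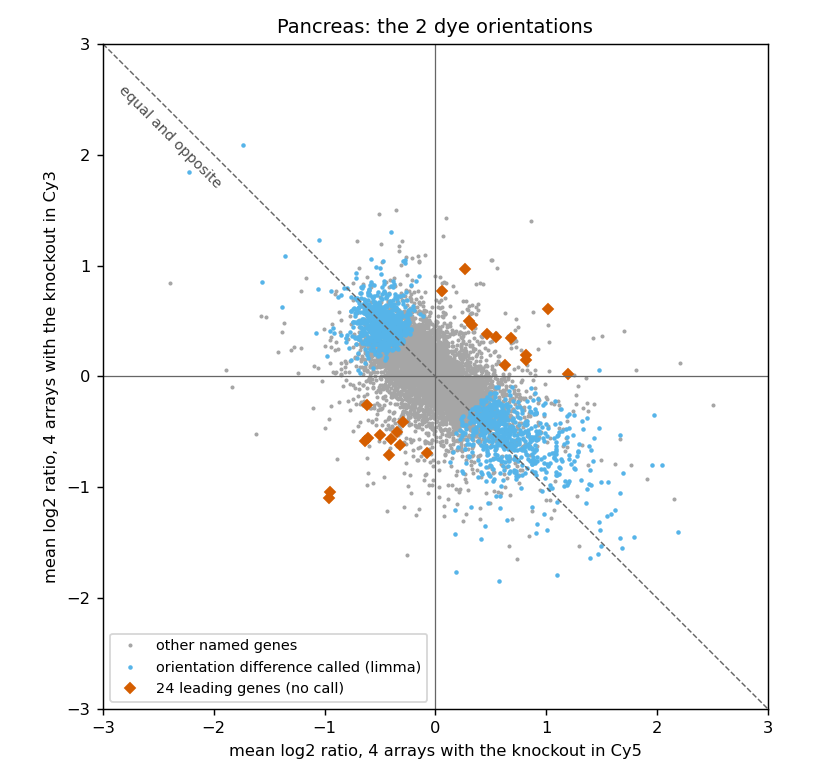
Mean log2 ratio of each named gene over the 4 arrays with the knockout in Cy3 against that over the 4 arrays with it in Cy5, with called orientation differences in blue and the 24 genes of smallest mean p in orange. The points run from upper left to lower right (r = −0.650), and opposite signs hold for 78.2% of genes.

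Orientation differences called in pancreas mostly had the same sign in the other tissues. Across units the orientation difference of pancreas correlated at r = 0.509 with that of brain, 0.717 with kidney and 0.696 with muscle, as a description over arrays that share probes and pools by tissue. The mean ratios of pancreas correlated at −0.0203, 0.0440 and −0.0568 in the same order. The median size of the orientation difference was 0.24 in pancreas, against 0.09 in brain, 0.09 in kidney and 0.14 in muscle, while the median size of the mean was 0.08, 0.06, 0.05 and 0.08. Of the units called in pancreas, the difference had the same sign in 2755 of 3064 measured in brain, 2993 of 3067 in kidney and 2945 of 3059 in muscle. The same share over all units was not counted, so these counts do not set the called units apart from others.

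To see which values were particular to pancreas, its mean was compared with the mean of brain, kidney and muscle of the same animals. Limma called 0 of 16186 units (0%), with 902 (5.57%) at an unadjusted p under 0.05. Against brain and kidney singly it called 0 each (892 and 856 unadjusted, 5.51% and 5.29%). Against muscle it called 1 (0.00618%; 1326 unadjusted, 8.19%), which was Cnn2. Cnn2 in pancreas was at −0.79, −0.73, −0.33 and −0.57 in animals 1 to 4, in muscle at 0.41, 0.93, 0.23 and 0.48, in brain at −0.05, −0.26, −0.02 and −0.24, and in kidney at 0.04, 0.11, 0.04 and −0.01. Pancreas was lower than muscle in 4 of 4 animals, and the groups did not overlap. Cnn2 was picked by this same comparison, so that separation follows from the choice. The share of all genes without overlap between pancreas and muscle was not counted. The difference was −1.12 ± 0.16 (SE, n = 4, limma adjusted p = 0.0387). With the animal as a block the limma adjusted p was 0.0551, with the difference taken within each animal 0.346, and with extreme values kept 0.0671. Without animal 1, 2, 3 or 4 it was 0.0673, 0.170, 0.0346 and 0.225, and with the Cy3 arrays turned the difference was 0.22.

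The genes of smallest p against the other tissues gave values only. Above were Homez at 0.70 ± 0.11, Best1 at 0.69 ± 0.12, Nsun6, an RNA cytosine methyltransferase, at 0.91 ± 0.16, Extl1 at 0.58 ± 0.13, Dysf, the membrane repair protein dysferlin, at 0.46 ± 0.10, Tulp2 at 0.56 ± 0.12, Fhod3 at 0.47 ± 0.10 and Tsen15, of the tRNA splicing endonuclease, at 0.57 ± 0.13. Below were Cnn2 at −0.74 ± 0.13, Ephx1, a microsomal epoxide hydrolase, at −0.85 ± 0.15, Sult2b1, a cholesterol sulphotransferase, at −1.06 ± 0.20, Lcn2 at −0.48 ± 0.09, Mrpl21 at −0.57 ± 0.11, Prr14 at −0.97 ± 0.20, the chemokine Ccl12 at −0.71 ± 0.16 and Tgds at −1.21 ± 0.27. Ephx1 in pancreas was at −1.08, −0.34, −1.27 and −0.24 in animals 1 to 4, with animals 1 and 3 the lowest. The pancreas animals lay apart from all 12 animal values of the other tissues for 14 of these 16 genes, the exceptions being Sult2b1 and Ccl12. As the 16 genes were chosen by this same comparison, their separation follows from the choice and is no further result. Nsun6 and Tgds had values in only 3 pancreas animals. Homez also had a called orientation difference in pancreas, 0.59 ± 0.12 (limma adjusted p = 0.0342). Its Cy5 arrays averaged 1.20 and its Cy3 arrays 0.02, so its pancreas value rested almost wholly on one orientation. Tulp2 is named above among the lowest called orientation differences. Over complete probes the pancreas mean of Lcn2 was 0.01. Its 12 animal values in the other tissues, over all probes, ran from −0.18 to 0.20. The probes of Mrpl21 had pancreas means of −0.99 and −0.14. Over 8000 named genes with all values, 29 lay above all others (0.363%) and 19 below (0.238%).

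**Figure D5:**
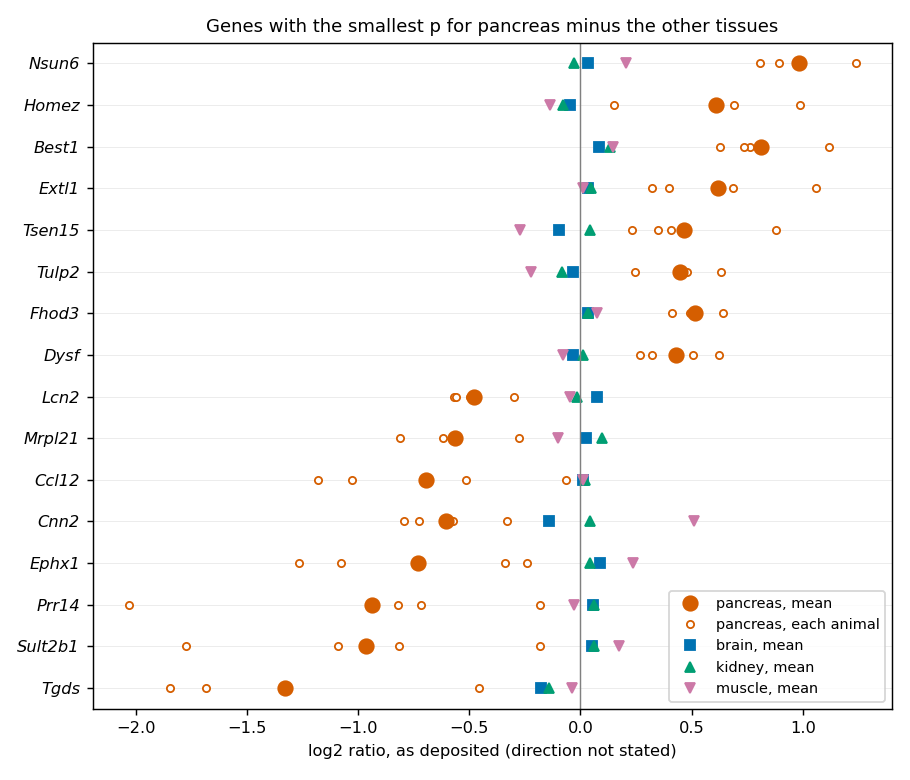
Log2 ratio (signs as deposited) of each animal and of the mean in pancreas, beside the means in brain, kidney and muscle, for the 16 genes of smallest p between pancreas and the other tissues. The Cnn2 animals lie between −0.79 and −0.33 in pancreas, below its mean in each other tissue.

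Single animals were compared over both of their arrays, with genes chosen after their values were seen and no test. The same animal was the highest on both orientations for 2059 of 8268 named genes (24.9%) and the lowest for 1991 (24.1%), both near the 25% that unrelated arrays of 4 animals would give. With a gap to the next animal above 0.5 on both, 98 genes were highest in 1 animal, 61 of them in animal 3, and 83 were lowest in 1 animal, 33 of them in animal 1 and 31 in animal 3. How many such genes would arise among unrelated arrays was not tested. For 26 of these the 6 arrays of the other animals all lay within 0.5 of 0. Animal 3 was the high one for 10 of 14, and animals 1 and 3 the low ones for 6 and 5 of 12.

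Slc25a25, a mitochondrial ATP-magnesium and phosphate carrier, was at 0.19, −0.18, 0.98 and −0.43 with the knockout in Cy5, and −0.04, −0.35, 1.18 and −0.43 with it in Cy3. Animal 3 stood above the rest on both arrays. Vta1, of endosomal sorting, was at −0.23, −0.20, 0.85 and −0.10 in animals 1 to 4, and Ptpa, an activator of protein phosphatase 2A, at 0.02, −0.14, 1.03 and −0.12 in animals 1 to 4. Tnip1, an inhibitor of inflammatory signalling, was high in animal 2, at 0.02, 0.90, −0.04 and −0.09 in animals 1 to 4, as was Nkg7, a granule protein of cytotoxic lymphocytes, at 0.03, 0.61, −0.12 and −0.13 in animals 1 to 4. Cds1, of phosphatidylinositol synthesis, was low in animal 1, at −1.47, 0.34, 0.17 and 0.00 in animals 1 to 4, and Tbx5, a heart and limb transcription factor, at −1.01, 0.20, −0.31 and −0.10 in animals 1 to 4. Tmem59 was low in animal 2, at 0.03, −1.37, 0.13 and 0.01 in animals 1 to 4. The probes of Tbx5 had means of −0.56 and −0.05, and those of Tmem59 −0.04 and −0.56. The chemokine Ccl22 was low in animal 3, at 0.36, −0.16, −1.05 and 0.03 in animals 1 to 4. So was Samm50, of the mitochondrial sorting and assembly machinery, at 0.01, 0.15, −0.65 and 0.07 in animals 1 to 4. The Samm50 probe with both arrays in 4 animals had a mean of −0.01, and the other had both arrays in 0 animals.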

How the data were processed

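RNA of 4 Nox4 knockout animals was hybridised with exchanged dyes against a wild-type pool, per the labels. The authors deposited a table of log2 ratios with a value for each probe on each array; its log base is taken as 2 because of how large the extreme values are. How the authors scanned, background-corrected, normalised and filtered the arrays is not given in the sources used here. A probe annotation gave 12771 probes 1 symbol, 0 several and 8023 none. All 9030 symbols were found in RefSeq (GRCm38.p6), used for names and for the genes next to Nox4.

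Values beyond 8 in size were taken as missing, probes of a symbol (2754 had several) were averaged on each array, and the 2 arrays of an animal were averaged, both being required. Limma 3.58.1 (R 4.3.3; lmFit, eBayes, two-sided) tested the mean against 0 for units with at least 3 animals, with Benjamini-Hochberg adjustment over all units and a threshold of 0.05. Orientation differences were tested likewise. Tissues were compared in 1 fit of 16 animal values with a weight per tissue. SE is that of limma. The tests were checked on simulated data. The animals pair the tissues, since the labels give the same mice, and their deviations in pancreas correlated with those in other tissues at r from −0.0865 to 0.103.

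Named genes were the 12 above and 12 below 0 of smallest p whose animals and orientation means all shared a sign, the 3 of smallest p in each list with all digestive enzymes and NADPH oxidase genes, the 10 highest and 10 lowest called orientation differences that shared a sign over animals, and the 8 of smallest p in each direction against the other tissues. The text gives examples of the list genes. The 31 lists had 1075 entries, 747 on the array. The measurements and lists were chosen with earlier results of these data known. Alternatives were other treatments of extreme values, missing arrays, centring, scaling, probes, dye terms, orientation, sign, moderation, weights, blocks and each animal left out.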

Additional observations from a re-analysis of the deposited data

Results flagged for a closer look

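For 10 of 160 genes with 4 animals, 1 animal stood apart from the other 3 by Dixon's criterion, which chance meets in about 1 in 20 groups. Spire1 was lowest in animal 4, at 0.13, and Ercc1 nearest to 0 in animal 1, at −0.12. The probes of Ercc1 had means of −0.23, over 4 animals, and −2.61, with both arrays in only 2 animals. Of the enzymes, Pla2g1b was highest in animal 4, at 0.25, and Ctrb1 in animal 3, at 0.41. Dpep1 and Slc4a1, the red cell anion exchanger, were highest in animal 4, at 0.93 and 0.77. Fabp1 was lowest in animal 3, at −1.87, Atp4a, the gastric proton pump, in animal 1, at −0.70, and Gpx2 in animal 4, at −0.64. Cemip, a hyaluronan-degrading protein near Nox4, stood apart in animal 3, at 0.035. Between tissues, the ratio of Cnn2 differed between pancreas and muscle by −1.12 in the fit without an animal block (limma adjusted p = 0.0387). With the animal as a block the limma adjusted p was 0.0551, and with the difference taken within each animal 0.346. With the Cy3 arrays turned the difference was 0.22.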

How the results depend on the processing

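The count of 0 units against the pool became 1 with the knockout in Cy5 only, 3070 with the Cy3 arrays turned and 71 with the spread shared with other tissues, and was 0 under every other alternative run, the complete probes chosen after seeing the data included. For the orientation difference, 0 to 1 units were called with an animal left out, against 3070 with all 4. Against the mean of the other tissues the count of 0 became 17 without weights, 116 with the Cy3 arrays turned and 0 to 6 with an animal left out. Against brain it became 342 with the Cy3 arrays turned and 0 to 7 with an animal left out, and against kidney 15 and 0 to 1. Against muscle the count of 1 became 0 with extreme values kept, with the replicate block, with the within-animal difference under a replicate block and with the Cy3 arrays turned, 151 without weights, 26 with arrays centred and scaled, and 0 to 13 with an animal left out. The pancreas minus muscle difference of Cnn2 reversed to 0.22 with the Cy3 arrays turned. The cause was not tested. Of 153 named values, 64 changed sign with the Cy3 arrays turned, 29 with Cy5 only, 43 with Cy3 only, and 6 to 11 with an animal left out. The unstated direction of the exchanged arrays and the number of animals limit every value, and signal over background was not used here.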
